A study of Gallus gallus with 12 samples.

Results

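The genes described here build the collagen and laminin scaffold of the chicken embryonic heart. They were taken by symbol: collagen chains, laminin chains, nidogens, the lysyl hydroxylases (PLOD), the catalytic subunits of prolyl 4-hydroxylase (P4HA) and the lysyl oxidases (LOX and LOXL). The rule found 65 of the 13009 genes named on the array, each read from the probe set with the highest mean signal. By role, 9 are fibrillar collagens, 22 belong to the basement membrane, 23 are other collagens and 10 are enzymes. The remaining symbol, COL4A3BP, matches the letters of the rule but encodes a ceramide transfer protein, so it was placed in no group.

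The series holds 12 Affymetrix chicken arrays, 2 for each of 6 groups of embryonic hearts: Tibetan hypoxia, Tibetan normoxia, Shouguang hypoxia, Shouguang normoxia, Dwarf Recessive White hypoxia and Dwarf Recessive White normoxia. The Tibetan chicken is a highland breed, and the title of the series asks what hypoxia does to the embryonic heart. The eggs of every breed were full sibs, and hearts were collected for RNA. Breed and family therefore cannot be told apart in any comparison between breeds. The sources used here do not give the oxygen tension, the embryos' age or sex, or the number of hearts behind an array. Nor do they say whether replicate arrays came from separate embryos, so p-values measure only the spread between arrays, which may be technical.

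Fibrillar collagens (types I, III and V in the heart wall and valves) assemble into tension-bearing fibrils, while type IV collagen and laminin form sheet-like basement membranes around cardiomyocytes and vessels, with nidogens linking both networks. Before secretion, prolyl 4-hydroxylases and lysyl hydroxylases modify the collagen chains, and lysyl oxidases cross-link them outside the cell. The hydroxylases use molecular oxygen as a substrate, and in mammalian cells P4HA1, P4HA2, PLOD2 and LOX are known targets of hypoxia-inducible factor.

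Of the 65 genes, 56 passed a filter that left out dim probe sets (a mean signal under 79.5, or 6.31 on the log2 scale): 8 fibrillar collagens, 21 basement membrane genes, 16 other collagens, all 10 enzymes and COL4A3BP. The 9 below it were COL24A1 (fibrillar), COL4A4 (basement membrane), and COL6A6, COL9A1, COL9A2, COL10A1, COL25A1, COL26A1 and COL28A1. Types IX and X are cartilage collagens, and 5 of 8 measured cartilage markers were also below the limit. The type IX chain COL9A3 passed, with a mean log2 signal of 7.005, as did COL2A1 (8.55) and COL11A1 (9.72), also known from cartilage. The markers COMP (8.6), ACAN (6.45) and HAPLN1 (6.47) passed too. The median distance between the lowest and the highest of the 12 arrays was 0.87 on the log2 scale, beside 0.94 over all 23063 probe sets tested. It was under 1 for 34 of the 56 genes (60.7%), beside 54.1% of all probe sets, and reached 4.22. By role this median was 0.69 for fibrillar collagens, 0.88 for basement membrane genes, 0.87 for other collagens and 0.91 for enzymes. COL1A1 (type I collagen) was the extreme, with all 12 arrays between 14.11 and 14.40. The members are the brightest probe set of each gene, while all probe sets include dimmer ones, so these spreads are not compared like with like. For mean hypoxia the median SE was 0.136 for the members and 0.153 for all probe sets. It was 0.127 for all 10276 genes read from the brightest probe set.

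The 10 cardiomyocyte markers examined were bright on every array (log2 signals of 12.1 to 15.63), as the label heart requires. For mean hypoxia 1 was above and 9 below 0 (median -0.092). For Tibetan minus Dwarf Recessive White 8 were above and 2 below 0 (median 0.131), and for Shouguang minus Dwarf Recessive White 9 and 1 (median 0.099). In these comparisons 0 passed, and the part of cardiomyocyte share in the results below was not tested. The summed log2 signal of 6 measured fibroblast markers lay between 15.36 and 15.59 on Tibetan arrays, 15.32 and 15.60 on Shouguang arrays and 15.46 and 15.61 on Dwarf Recessive White arrays. Liver and yolk plasma protein genes such as ALB moved with the condition, with a mean log2 change in hypoxia of -2.83 ± 0.41 (SE, adjusted p = 0.0378 by limma); their part in the results below was not tested. The W chromosome is carried by female birds, and the mean log2 signal of 14 W-linked genes was 9.23 to 9.60 on Tibetan arrays, 8.09 to 9.43 on Shouguang arrays and 6.01 to 9.49 on Dwarf Recessive White arrays. On Shouguang arrays it separated by condition, with 8.09 and 8.25 in hypoxia against 9.43 and 8.95 in normoxia. Replicate 1 of Dwarf Recessive White normoxia, at 6.01, stood apart, so the calls, and the differences between breeds in the hypoxia effect, are also given without it.

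No collagen, laminin, nidogen or enzyme gene passed the test for a hypoxia effect averaged over the 3 breeds. Read from the brightest probe set of each, COL1A1, COL1A2, COL3A1, COL4A1 and COL4A2 had narrow intervals that included 0. With limma, 0 of 56 passed an adjusted p of 0.05, beside 0.0564% of all probe sets. At an unadjusted p under 0.05 there were 6 of 56 (10.7%), beside 8.36% of all probe sets. By role the median log2 change, hypoxia minus normoxia, was 0.05 for fibrillar collagens (5 of 8 above 0), 0.10 for basement membrane genes (14 of 21), -0.04 for other collagens (7 of 16) and -0.07 for enzymes (4 of 10). Over all probe sets the median was 0.00, rounded from 0.005, with 51.1% above 0. Because heart tissue was measured in bulk, fewer cells of a type and less RNA per cell cannot be told apart in any of these values.

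COL1A1, the major chain of type I collagen, had log2 signals of 14.38 and 14.26 in Tibetan hypoxia, against 14.30 and 14.15 in Tibetan normoxia. It had 14.39 and 14.18 in Shouguang hypoxia, against 14.11 and 14.35 in Shouguang normoxia, and 14.40 and 14.36 in Dwarf Recessive White hypoxia, against 14.40 and 14.31 in Dwarf Recessive White normoxia. Conditions overlapped in all breeds. The mean log2 change of COL1A1 was 0.06, with a 95% interval of -0.07 to 0.19. Its partner chain COL1A2 had 0.05 (-0.11 to 0.21), and COL3A1, the type III chain, had 0.10 (-0.02 to 0.22). COL5A1 and COL5A2, whose type V collagen sets fibril diameter, had 0.15 (-0.16 to 0.46) and -0.05 (-0.29 to 0.19). On the brightest probe set of each of these chains, an average hypoxia effect as large as 0.50 lies outside the interval in either direction. COL1A1 has 1 tested probe set, COL1A2 and COL3A1 have 5 each, COL5A1 has 2 and COL5A2 has 3. Effects on the dimmer ones are not bounded by these intervals. A dimmer COL3A1 probe set had 11.643 and 11.67 in Shouguang hypoxia, against 11.082 and 11.244 in Shouguang normoxia. Tibetan hypoxia arrays also lay above normoxia arrays there, and Dwarf Recessive White arrays overlapped. COL2A1 and COL11A1, fibrillar chains best known from cartilage, had -0.19 ± 0.14 and 0.20 ± 0.14 (SE), and COL27A1 had -0.29 ± 0.31.

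Within the basement membrane, COL4A1 and COL4A2, which pair in the ubiquitous type IV network, had mean log2 changes of -0.02 (-0.17 to 0.14) and -0.02 (-0.15 to 0.11). Of the 11 laminins tested, 10 (90.9%) had a mean change above 0, beside 51.1% of all probe sets, with a median of 0.11, and none passed. The exception, LAMB4, had -0.52 ± 0.55, with 3 hypoxia arrays and 1 normoxia array under the dim limit. Within breeds 8 of the 11 laminins were above 0 in Tibetan, 7 in Shouguang and 7 in Dwarf Recessive White hearts. The shares of all probe sets above 0 were 52.7%, 48.8% and 50.6%. LAMA5, an alpha chain of vessel and epithelial basement membranes, had log2 signals of 11.30 and 11.38 in Tibetan hypoxia, against 10.98 and 11.04 in Tibetan normoxia. It had 11.67 and 11.65 in Shouguang hypoxia, against 11.46 and 11.56 in Shouguang normoxia, and 11.65 and 11.38 in Dwarf Recessive White hypoxia, against 11.26 and 10.97 in Dwarf Recessive White normoxia. In each breed both hypoxia arrays lay above both normoxia arrays, with a mean change of 0.30 ± 0.08 (adjusted p = 0.245 by limma). Without the Dwarf Recessive White normoxia array of low W-linked signal it was 0.34. LAMA2 (0.13), LAMA4 (0.11), LAMB2 (0.10), LAMC1 (0.09) and LAMB1 (0.01) were closer to 0. The nidogens NID1 and NID2 had 0.11 and 0.06, read from the brightest probe set of each. COL15A1 and COL18A1, whose collagens sit at the outer face of basement membranes, had -0.14 and -0.05 read so. The direction for COL15A1 was not firm, with -0.28 to 0.07 over 24 alternative settings and the sign turned in 1. Its other tested probe set had 7.336 and 7.276 in Tibetan hypoxia, against 5.978 and 6.797 in Tibetan normoxia. Shouguang arrays overlapped there. Dwarf Recessive White hearts ran the other way, with 6.975 and 6.699 in hypoxia against 7.579 and 7.977 in normoxia.

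COL4A5, another type IV chain, had a mean log2 change in hypoxia of 0.38 ± 0.11 (adjusted p = 0.311 by limma), with 0.44 in Tibetan, 0.43 in Shouguang and 0.26 in Dwarf Recessive White hearts. Its neighbour in the genome, COL4A6, had 0.18 ± 0.14. LAMC3, a laminin gamma chain near the dim limit, had 0.76 ± 0.33, which became 0.26 when signals under the limit were raised to it.

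**Figure D1:**
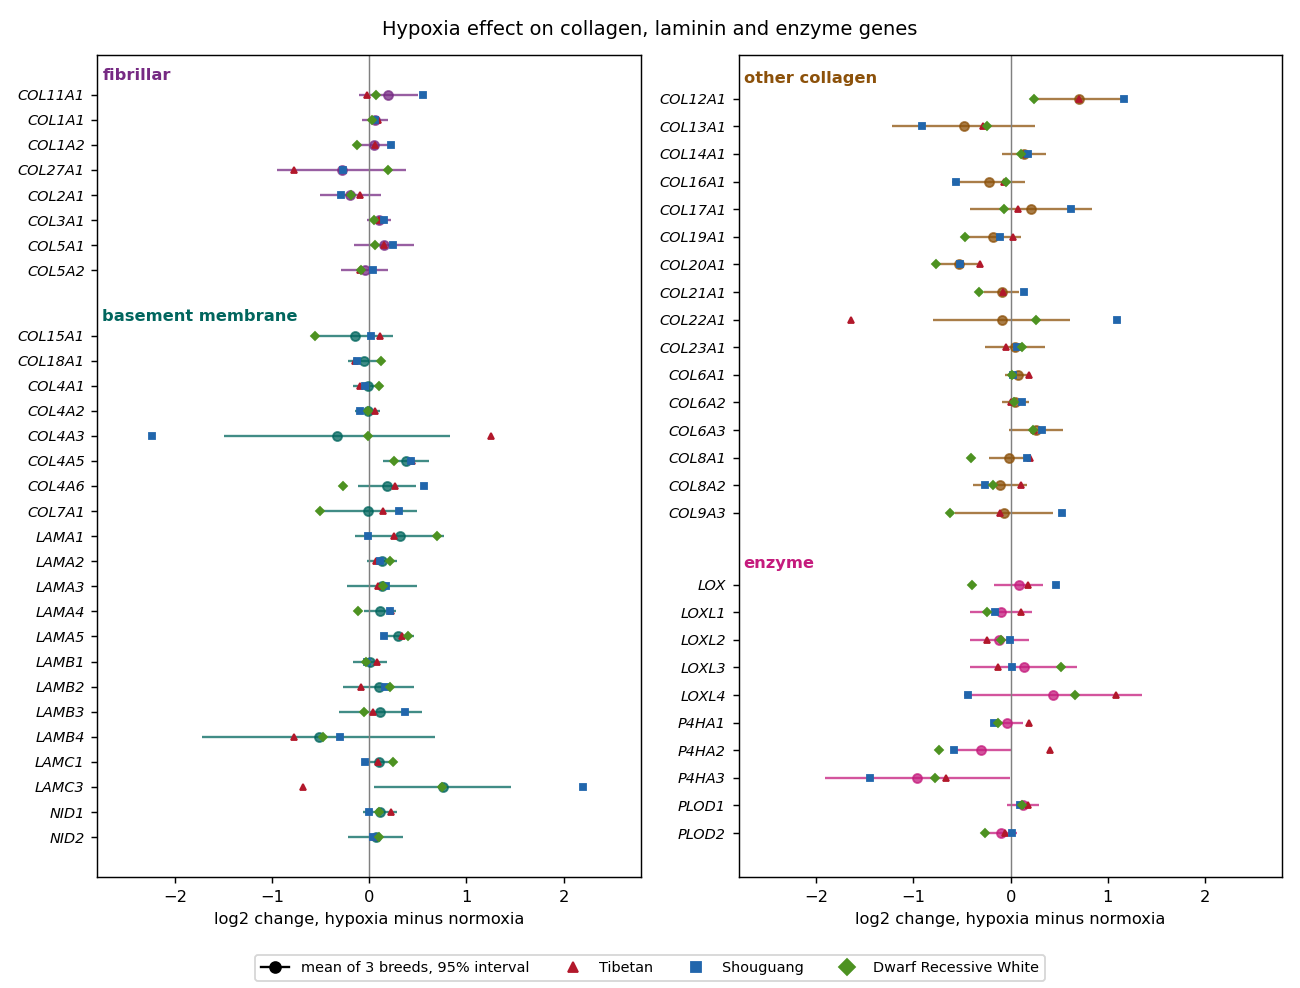
Log2 change in hypoxia minus normoxia for the 55 tested genes with a role, by role. Circles and lines give the mean of the 3 breeds with its 95% interval, and triangles, squares and diamonds the change within Tibetan, Shouguang and Dwarf Recessive White hearts; COL1A1, COL1A2, COL3A1, COL4A1 and COL4A2 lie between -0.02 and 0.10, while the intervals of COL20A1 (-0.53), COL12A1 (0.70), LAMA5 (0.30), COL4A5 (0.38), LAMC3 (0.76) and P4HA3 (-0.96) leave 0 out, and none passed an adjusted p of 0.05.

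Of all members COL20A1 came closest to the threshold. It encodes a fibril-associated collagen of the FACIT class, which binds to the surface of fibrils. Its log2 signals were 9.22 and 9.30 in Tibetan hypoxia, against 9.52 and 9.64 in Tibetan normoxia. They were 9.36 and 9.18 in Shouguang hypoxia, against 9.64 and 9.95 in Shouguang normoxia, and 9.28 and 9.09 in Dwarf Recessive White hypoxia, against 9.95 and 9.94 in Dwarf Recessive White normoxia. All 6 hypoxia arrays lay below all 6 normoxia arrays, with a mean log2 change of -0.53 ± 0.10 (adjusted p = 0.0898 by limma). Leaving out any 1 array kept the change between -0.58 and -0.48, and without the Dwarf Recessive White normoxia array of low W-linked signal it was -0.53 (adjusted p = 0.292). COL20A1 and LAMA5 were the 2 of 56 genes (3.57%) whose arrays separated by condition in the same direction in every breed, which held for 2.48% of all probe sets.

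COL12A1, another FACIT collagen, had log2 signals of 9.49 and 9.56 in Tibetan hypoxia, against 8.99 and 8.66 in Tibetan normoxia. It had 10.72 and 9.36 in Shouguang hypoxia, against 8.95 and 8.80 in Shouguang normoxia, and 9.85 and 9.60 in Dwarf Recessive White hypoxia, against 9.03 and 9.94 in Dwarf Recessive White normoxia. Conditions separated in Tibetan and Shouguang hearts and overlapped in Dwarf Recessive White hearts, and replicate 1 of Shouguang hypoxia was far above the rest. The summed log2 signal of the 8 measured cartilage markers was also highest on that array, at 10.57, followed by replicate 2 of Dwarf Recessive White normoxia, at 10.08, against 9.14 to 9.72 on the other 10; its part in COL12A1 was not tested. The mean change was 0.70 ± 0.22 (adjusted p = 0.345 by limma), and the 2 other tested COL12A1 probe sets gave 0.53 and 0.75. COL14A1, also a FACIT collagen, had 0.14 ± 0.10, and the type VI chains COL6A1, COL6A2 and COL6A3, which form beaded microfibrils, had 0.08, 0.05 and 0.27 ± 0.13.

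No enzyme passed for the mean hypoxia effect. P4HA1, the main catalytic subunit of prolyl 4-hydroxylase, had log2 signals of 11.34 and 11.47 in Tibetan hypoxia, against 11.05 and 11.38 in Tibetan normoxia. It had 11.17 and 11.27 in Shouguang hypoxia, against 11.36 and 11.42 in Shouguang normoxia, and 11.22 and 11.22 in Dwarf Recessive White hypoxia, against 11.35 and 11.34 in Dwarf Recessive White normoxia. On this brightest probe set hypoxia arrays lay below normoxia arrays in Shouguang and Dwarf Recessive White hearts and overlapped them in Tibetan hearts. The other tested P4HA1 probe set differed. There Tibetan hypoxia arrays, at 9.848 and 9.915, lay above normoxia arrays, at 9.645 and 9.439, and conditions overlapped in both other breeds. Read from the brightest probe set of each, P4HA1 had a mean log2 change of -0.03 (-0.20 to 0.13) and PLOD2 -0.10 (-0.28 to 0.07). PLOD1 had 0.13 (-0.03 to 0.30) and LOX 0.08 (-0.17 to 0.34). The cross-linking relatives LOXL1 and LOXL2 had -0.10 and -0.12. P4HA3 had -0.96 ± 0.44, with 2 of its 6 hypoxia arrays and none of its 6 normoxia arrays under the dim limit, and -0.45 when such signals were raised to the limit. P4HA2 had -0.30 ± 0.14, an average over breeds that went different ways.

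Within single breeds no member passed: 0 of 56 in Tibetan hearts, 0 of 56 in Shouguang hearts and 0 of 56 in Dwarf Recessive White hearts by limma. Of all probe sets, 0% passed in Tibetan, 0% in Shouguang and 0.00434% in Dwarf Recessive White hearts. At an unadjusted p under 0.05 there were 3 members (5.36%, beside 4.45% of all probe sets) in Tibetan, 9 (16.1%, beside 5.52%) in Shouguang and 5 (8.93%, beside 6.33%) in Dwarf Recessive White hearts. On Shouguang arrays the W-linked signal also separated by condition, and the part of sex in the Shouguang count was not tested. The smallest p-values in Tibetan hearts belonged to COL22A1, a FACIT collagen of tissue junctions (-1.64 ± 0.56), LAMA5 (0.33 ± 0.13) and COL4A5 (0.44 ± 0.19). In Shouguang hearts they belonged to LAMC3 (2.20 ± 0.56), COL12A1 (1.17 ± 0.37) and COL20A1 (-0.52 ± 0.17), and in Dwarf Recessive White hearts to COL20A1 (-0.77 ± 0.17), LAMA5 (0.40 ± 0.13) and P4HA2 (-0.74 ± 0.25). Single arrays moved several of these: the Shouguang value of COL12A1 was 0.49 without replicate 1 of Shouguang hypoxia and 1.85 without replicate 2. The Tibetan value of COL22A1 was -0.85 without replicate 2 of Tibetan hypoxia and -2.43 without replicate 1. For P4HA2 the Dwarf Recessive White value was -0.42 without replicate 2 of Dwarf Recessive White hypoxia and -1.06 without replicate 1, and for LAMA5 leaving out 1 array gave 0.26 to 0.55. By role, the median log2 change of the enzymes was 0.14 in Tibetan, -0.08 in Shouguang and -0.18 in Dwarf Recessive White hearts. For fibrillar collagens these medians were 0.02, 0.10 and 0.04, and for basement membrane genes 0.09, 0.04 and 0.10. COL22A1 and LAMC3 reached the dim limit: with low signals raised to it, the Tibetan change of COL22A1 was -1.06 and the Shouguang change of LAMC3 was 0.58.

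The test of whether the hypoxia effect differed between breeds also gave 0 of 56 members in each of the 3 pairs of breeds by limma, beside 0% of all probe sets. At an unadjusted p under 0.05 there were 4 for Tibetan minus Shouguang (7.14%, beside 2.88% of all probe sets), 3 for Tibetan minus Dwarf Recessive White (5.36%, beside 4%) and 4 for Shouguang minus Dwarf Recessive White (7.14%, beside 4.56%). P4HA2, the catalytic subunit of a prolyl 4-hydroxylase, had log2 signals of 8.23 and 8.28 in Tibetan hypoxia, against 7.86 and 7.84 in Tibetan normoxia. It had 7.99 and 7.70 in Shouguang hypoxia, against 8.56 and 8.28 in Shouguang normoxia, and 8.65 and 8.02 in Dwarf Recessive White hypoxia, against 9.15 and 9.01 in Dwarf Recessive White normoxia. Hypoxia arrays thus lay above normoxia arrays in Tibetan hearts and below them in both other breeds. Counted in either direction, Tibetan arrays separated one way and both other breeds the other way in 2 of 56 members (3.57%). The share of all probe sets, counted so, was 0.65%. The other member was LAMC3, near the dim limit. It ran opposite to P4HA2, lower in hypoxia in Tibetan hearts and higher in hypoxia in both other breeds.

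The difference of the P4HA2 effects was 1.15 ± 0.35 for Tibetan minus Dwarf Recessive White and 0.99 ± 0.35 for Tibetan minus Shouguang, on the log2 scale, with adjusted p = 0.9997 and 0.9999 by limma. The other tested P4HA2 probe set gave 0.94 ± 0.45 and 0.62 ± 0.45 for these differences. LOX, the founding lysyl oxidase and a gene of the Z chromosome, had log2 signals of 10.54 and 10.16 in Shouguang hypoxia, against 9.94 and 9.84 in Shouguang normoxia. Dwarf Recessive White hearts had 10.43 and 10.27 in hypoxia, against 10.68 and 10.82 in normoxia, so the conditions separated in opposite directions. Such opposite separation in these breeds was seen for 4 of 56 members (7.14%), LOX among them, and its share of all probe sets is not given here. Tibetan hearts had 10.55 and 10.65 in hypoxia, against 10.75 and 10.09 in normoxia, and overlapped. LOX had a difference of 0.86 ± 0.29 for Shouguang minus Dwarf Recessive White, from 0.47 in Shouguang and -0.40 in Dwarf Recessive White hearts. The mean W-linked log2 signal was 8.09 and 8.25 in Shouguang hypoxia, against 9.43 and 8.95 in normoxia. In Dwarf Recessive White hearts it was 9.49 and 8.15 in hypoxia, against 6.01 and 8.42 in normoxia. Over 12 alternative settings, among them a covariate for this signal, the LOX difference was 0.84 to 0.99. The part of sex in the LOX values was not tested. COL8A1, a chain of the network-forming type VIII collagen, had 0.57 ± 0.23 for Shouguang minus Dwarf Recessive White and 0.60 ± 0.23 for Tibetan minus Dwarf Recessive White, which share the Dwarf Recessive White arrays. COL4A6 had 0.84 ± 0.34 for Shouguang minus Dwarf Recessive White. COL22A1 had -2.74 ± 0.79 and LAMC3 -2.88 ± 0.80 for Tibetan minus Shouguang, and COL22A1 had -1.91 ± 0.79 for Tibetan minus Dwarf Recessive White. With dim signals raised to the limit these were -1.97, -0.94 and -1.33. Without the array of low W-linked signal, the differences from Dwarf Recessive White were 1.08 for P4HA2, 0.94 for LOX and 1.04 for COL4A6. COL8A1 then had 0.70 and 0.73 and COL22A1 -1.54.

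**Figure D2:**
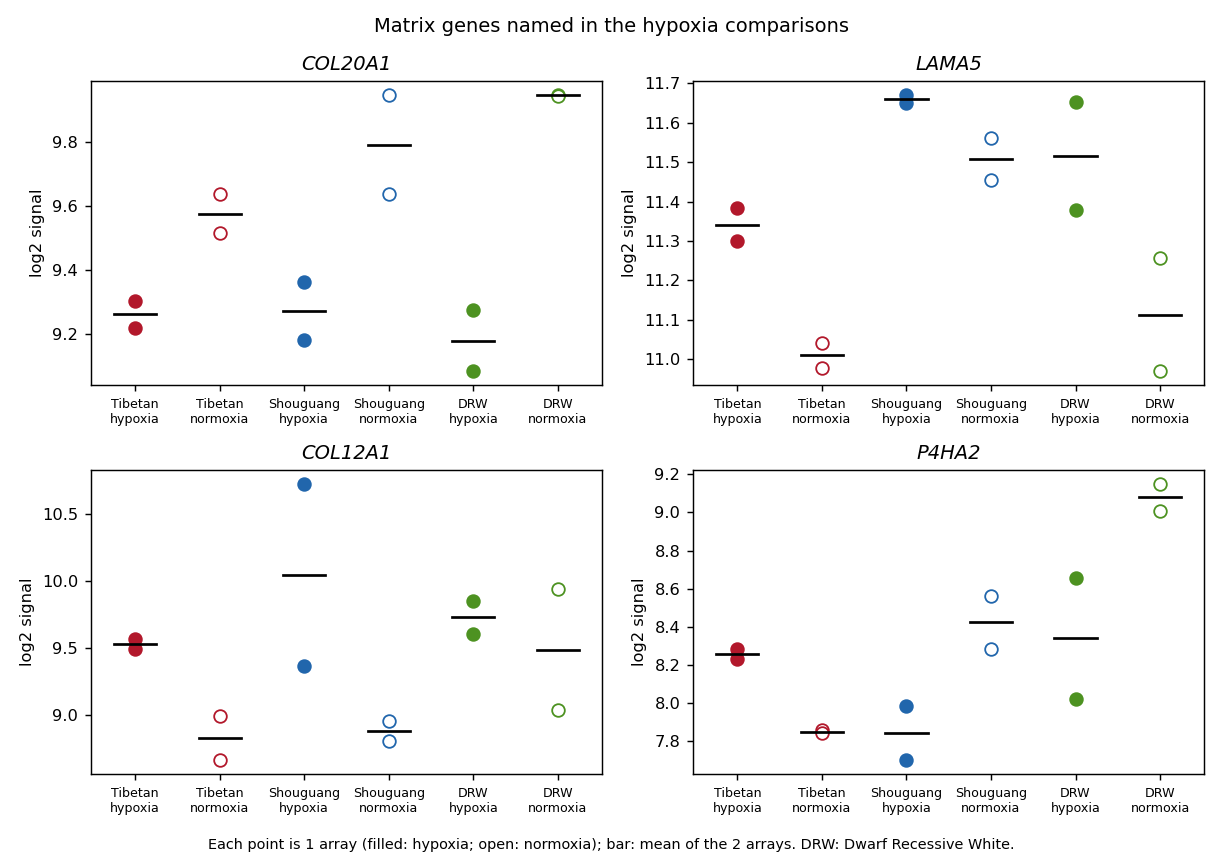
Log2 signal of COL20A1, LAMA5, COL12A1 and P4HA2 on each array, by breed and condition; points are arrays (filled for hypoxia, open for normoxia) and bars the mean of 2. COL20A1 is lower on every hypoxia array than on any normoxia array, LAMA5 is higher in hypoxia within each breed, and P4HA2 is higher in hypoxia in Tibetan hearts and lower in the other breeds.

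Between breeds 4 members passed, 3 of the basement membrane and 1 enzyme. Averaged over both conditions, LAMA2 was higher in Tibetan hearts than in either other breed, PLOD1 was higher and COL4A5 lower in Tibetan than in Shouguang hearts, and LAMB1 was lower in Shouguang than in Dwarf Recessive White hearts. No fibrillar collagen passed in any pair of breeds. By limma at an adjusted p of 0.05, 3 of 56 members (5.36%) passed for Tibetan minus Shouguang, beside 0.551% of all probe sets. For Tibetan minus Dwarf Recessive White 1 of 56 (1.79%) passed, beside 0.759%, and for Shouguang minus Dwarf Recessive White 1 of 56, beside 1.33%. At an unadjusted p under 0.05 the members numbered 14 (25%, beside 12.2%), 8 (14.3%, beside 12.3%) and 9 (16.1%, beside 11.7%) in these comparisons. The 3 comparisons share arrays in pairs, and because the eggs of each breed were full sibs, a difference between breeds may be one between families.

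LAMA2 encodes the laminin alpha chain of the muscle basement membrane, and its loss causes a congenital muscular dystrophy in humans. Its log2 signals were 11.47 and 11.43 in Tibetan hypoxia and 11.34 and 11.43 in Tibetan normoxia. They were 10.90 and 11.02 in Shouguang hypoxia, 10.91 and 10.79 in Shouguang normoxia, 11.01 and 11.10 in Dwarf Recessive White hypoxia and 10.76 and 10.92 in Dwarf Recessive White normoxia. All 4 Tibetan arrays lay above all 8 others, whichever the condition. The difference was 0.51 ± 0.08 for Tibetan minus Shouguang (adjusted p = 0.0265) and 0.47 ± 0.08 for Tibetan minus Dwarf Recessive White (adjusted p = 0.0268) by limma, about 1.43 and 1.39 times the signal. The 2 other tested LAMA2 probe sets gave 0.34 ± 0.22 and 0.41 ± 0.19 for Tibetan minus Shouguang, and 0.54 ± 0.22 and 0.21 ± 0.19 for Tibetan minus Dwarf Recessive White. They had the same direction and did not pass.

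PLOD1 encodes a lysyl hydroxylase, an enzyme that makes the hydroxylysines used in collagen cross-links. Tibetan arrays read 12.02 and 11.71 in hypoxia and 11.81 and 11.56 in normoxia. Shouguang arrays read 11.41 and 11.29 in hypoxia and 11.26 and 11.24 in normoxia, and Dwarf Recessive White arrays 11.47 and 11.44 in hypoxia and 11.35 and 11.33 in normoxia. The 4 Tibetan arrays again lay above the 8 others, and differed more among themselves than the arrays of the other breeds did. The difference was 0.48 ± 0.09 for Tibetan minus Shouguang (adjusted p = 0.0477 by limma) and 0.38 ± 0.09 for Tibetan minus Dwarf Recessive White (adjusted p = 0.0914). The related PLOD2 had 0.07 and -0.18 in these comparisons. COL17A1, a transmembrane collagen, was the third member with all Tibetan arrays above all others (0.94 ± 0.35 for Tibetan minus Shouguang, adjusted p = 0.289). Its replicate 1 of Shouguang normoxia, at 6.11, was under the dim limit. With that signal raised to the limit the difference was 0.89, and without replicate 2 of Shouguang normoxia it was 1.48. Separation of all 4 Tibetan arrays from all 8 others, counted in either direction, was seen for 3 of 56 members (5.36%) and 1.7% of all probe sets.

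COL4A5 ran the other way. Its log2 signals were 10.42 and 10.11 in Tibetan hypoxia and 9.75 and 9.90 in Tibetan normoxia, against 11.21 and 10.86 in Shouguang hypoxia and 10.43 and 10.77 in Shouguang normoxia. Dwarf Recessive White hearts had 10.29 and 10.54 in hypoxia and 9.99 and 10.33 in normoxia. All Tibetan arrays lay below all Shouguang arrays, and Dwarf Recessive White arrays overlapped both. The difference was -0.77 ± 0.14 for Tibetan minus Shouguang (adjusted p = 0.0326 by limma), or 0.585 times the signal. The other tested probe sets of the gene gave -0.50 ± 0.18 and -0.01 ± 0.27 and did not pass. The adjacent COL4A6 had -0.54 ± 0.17 in the same comparison (adjusted p = 0.187).

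LAMB1, the beta chain of several laminins, had log2 signals of 12.58 and 12.38 in Shouguang hypoxia and 12.59 and 12.43 in Shouguang normoxia, against 12.92 and 12.99 in Dwarf Recessive White hypoxia and 12.92 and 13.06 in Dwarf Recessive White normoxia. Tibetan arrays read 13.05 and 12.71 in hypoxia and 12.97 and 12.63 in normoxia. All Shouguang arrays lay below all 8 others, a separation seen for 2 of 56 members (3.57%, with COL6A2 above them as the other) and 1.84% of all probe sets. Dwarf Recessive White arrays separated so for 0 of 56 members and 1.96% of all probe sets. The difference was -0.48 ± 0.10 for Shouguang minus Dwarf Recessive White (adjusted p = 0.0411 by limma) and 0.35 ± 0.10 for Tibetan minus Shouguang (adjusted p = 0.158). The other tested LAMB1 probe set gave -0.15 ± 0.17 for Shouguang minus Dwarf Recessive White.

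**Figure D3:**
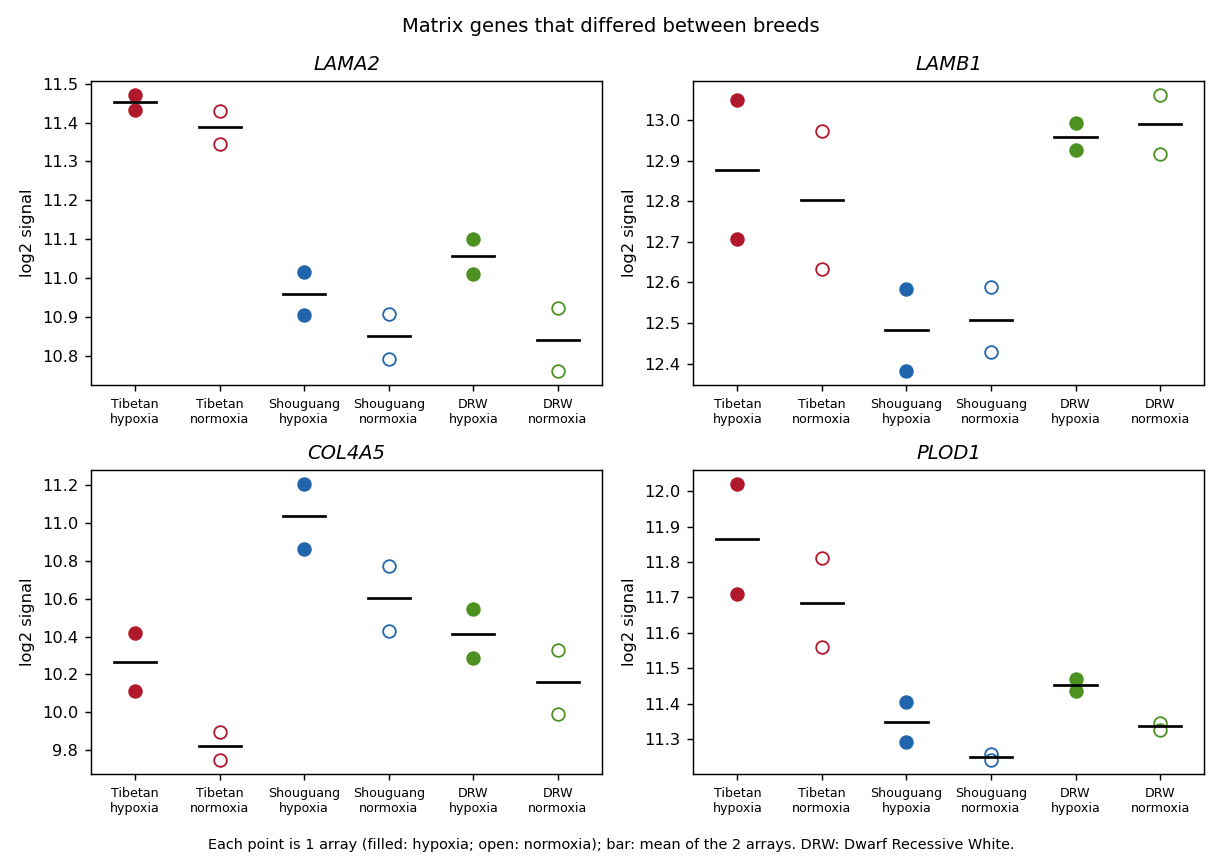
Log2 signal of LAMA2, LAMB1, COL4A5 and PLOD1 on each array, by breed and condition; points are arrays (filled for hypoxia, open for normoxia) and bars the mean of 2, with a separate scale in each panel. Tibetan arrays are above all others for LAMA2 and PLOD1 and below all Shouguang arrays for COL4A5, and Shouguang arrays are below all others for LAMB1.

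On the RefSeq chicken assembly the called genes lie on separate chromosomes: LAMB1 on chromosome 1, LAMA2 on 3, COL4A5 on 4 and PLOD1 on 21.

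These calls lie close to the threshold, and leaving out 1 array at a time ended many of them without turning a direction. LAMA2 kept its call in 5 of 12 such fits in each comparison. It was lost for Tibetan minus Shouguang without any Tibetan array, either Shouguang normoxia array or replicate 1 of Shouguang hypoxia (adjusted p up to 0.0831), and for Tibetan minus Dwarf Recessive White without any Tibetan array, either Dwarf Recessive White hypoxia array or replicate 1 of Dwarf Recessive White normoxia (up to 0.115). COL4A5 kept it in 6 of 12, losing it without any Tibetan array, replicate 1 of Shouguang hypoxia or replicate 2 of Shouguang normoxia (up to 0.108). LAMB1 kept it in 4 of 12, losing it without any Shouguang or Dwarf Recessive White array (up to 0.138), and PLOD1 lost it in all 12 (0.0573 to 0.143). Without the array of low W-linked signal, LAMA2 had 0.51 for Tibetan minus Shouguang (adjusted p = 0.0375) and 0.43 for Tibetan minus Dwarf Recessive White (0.115), COL4A5 -0.77 (0.0395), PLOD1 0.48 (0.0686) and LAMB1 -0.51 (0.0847). With a covariate for the W-linked signal, none of these passed: LAMA2 had 0.48 and 0.40, PLOD1 0.48, COL4A5 -0.81 and LAMB1 -0.50.

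Among members that did not pass, LAMA5 had -0.41 ± 0.09 for Tibetan minus Shouguang (adjusted p = 0.0755), with all Tibetan arrays below all Shouguang arrays. COL23A1, a transmembrane collagen, had -0.69 ± 0.17 for Tibetan minus Dwarf Recessive White (adjusted p = 0.0968), and P4HA2 had -0.66 ± 0.18 there and -0.58 ± 0.18 for Shouguang minus Dwarf Recessive White. LAMB3 had -0.84 ± 0.24 and LOX -0.43 ± 0.14 for Shouguang minus Dwarf Recessive White. Separation of all 4 Tibetan from all 4 Shouguang arrays, in either direction, occurred in 8 of 56 members (14.3%, beside 7.22% of all probe sets). For Tibetan against Dwarf Recessive White it occurred in 4 (7.14%, beside 7.7%), and for Shouguang against Dwarf Recessive White in 4 (7.14%, beside 7.22%).

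No fibrillar chain came near the threshold between breeds. COL1A1, COL1A2, COL3A1, COL5A1 and COL5A2 had log2 differences of -0.13 to 0.10 and adjusted p of 0.604 or more, and the 8 fibrillar genes had a median of -0.02 for Tibetan minus Shouguang, -0.10 for Tibetan minus Dwarf Recessive White and -0.04 for Shouguang minus Dwarf Recessive White. Basement membrane genes had medians of 0.03, -0.02 and 0.02 in the same order of comparisons, with 1 call in each direction for Tibetan minus Shouguang. Other collagens had -0.13, -0.12 and -0.13, rounded from -0.135, and enzymes had 0.04, -0.11 and -0.15, beside medians over all probe sets of 0.01, 0.00 and -0.00. Of the type VI chains, COL6A1 and COL6A2, adjacent in the genome, had -0.25 ± 0.08 each for Tibetan minus Shouguang (adjusted p = 0.187 and 0.201).

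**Figure D4:**
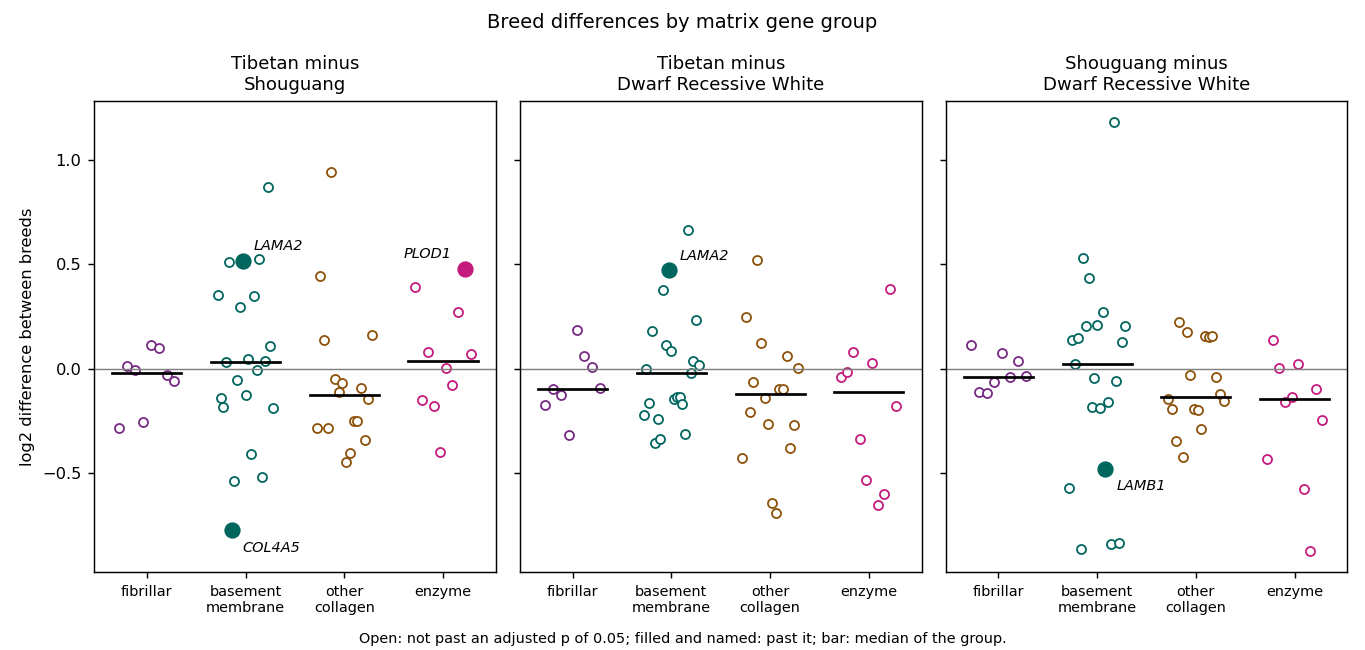
Log2 difference between breeds, averaged over both conditions, for the 55 tested genes with a role, in panels for Tibetan minus Shouguang, Tibetan minus Dwarf Recessive White and Shouguang minus Dwarf Recessive White; each circle is a gene, bars are medians by role, and filled, named circles passed an adjusted p of 0.05. Fibrillar collagens lie between -0.32 and 0.18 over the panels, and the called genes are LAMA2 (0.51 and 0.47), COL4A5 (-0.77), PLOD1 (0.48) and LAMB1 (-0.48).

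Several genes have more than 1 tested probe set (31 of the 56), and for COL4A2 and COL14A1 these gave different answers between breeds. The brightest COL4A2 probe set, Gga.3104.1.S1_at, had 0.18 ± 0.07 for Tibetan minus Dwarf Recessive White and 0.15 ± 0.07 for Shouguang minus Dwarf Recessive White, and did not pass. The probe set Gga.19409.1.S1_s_at did. It had log2 signals of 13.60 and 13.60 in Tibetan hypoxia and 13.66 and 13.68 in Tibetan normoxia, 13.56 and 13.47 in Shouguang hypoxia and 13.73 and 13.51 in Shouguang normoxia. Dwarf Recessive White hearts had 13.09 and 13.02 in hypoxia and 13.13 and 12.96 in normoxia, below all 8 other arrays. The difference was 0.58 ± 0.07 for Tibetan minus Dwarf Recessive White (adjusted p = 0.00258) and 0.52 ± 0.07 for Shouguang minus Dwarf Recessive White (adjusted p = 0.00348) by limma. Both calls were kept in all 12 fits that left out 1 array, with adjusted p up to 0.0172 and 0.0206, and with 0.63 and 0.56 without the array of low W-linked signal. Both missed the threshold without the intensity trend (0.0831 and 0.0877), and the first also with the W-linked covariate (0.0654). The summed log2 signal of 8 endothelial markers was 14.32 to 14.40 on Tibetan and 14.31 to 14.51 on Shouguang arrays. On Dwarf Recessive White arrays it was 14.19 to 14.29, close below these. Of the 8 genes, 6 were above and 2 below 0 for Tibetan minus Dwarf Recessive White (median 0.157), and 0 passed. The same counts held for Shouguang minus Dwarf Recessive White (median 0.201). The summed log2 signal of 6 leukocyte markers was 11.62 to 12.05 on Tibetan and 11.64 to 11.90 on Shouguang arrays. On Dwarf Recessive White arrays it was 12.14 to 12.47. CD74, the brightest of these markers (mean log2 signal 11.5), weighs most in this sum. Of the 5 tested, 2 were above and 3 below 0 for Tibetan minus Dwarf Recessive White (median -0.055). For Shouguang minus Dwarf Recessive White 0 were above and 5 below (median -0.368). The part of endothelial cells and leukocytes in the differences from Dwarf Recessive White hearts was not tested.

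A further COL4A2 probe set, Gga.19409.1.S1_at, differed between breeds by more. Tibetan arrays read 10.34 and 10.13 in hypoxia and 8.80 and 9.73 in normoxia, Shouguang arrays 11.50 and 11.33 in hypoxia and 11.42 and 11.54 in normoxia, and Dwarf Recessive White arrays 9.04 and 9.82 in hypoxia and 3.55 and 8.72 in normoxia. All Shouguang arrays lay above all others, and replicate 1 of Dwarf Recessive White normoxia was under the dim limit. The difference for Shouguang minus Dwarf Recessive White was 3.67 ± 0.77 (adjusted p = 0.0403 by limma), and 2.37 without that array (adjusted p = 0.00113). It was 2.98 with low signals raised to the limit, and leaving out any Tibetan, Shouguang or Dwarf Recessive White hypoxia array ended the call (up to 0.131). It also ended without the filter (0.0656), with the W-linked covariate (0.0697), with the arrays of both breeds alone (0.0893) and without the trend (0.165). The 3 remaining COL4A2 probe sets had -0.10, 0.04 and -0.18 for Tibetan minus Dwarf Recessive White and 0.15, 0.02 and 0.01 for Shouguang minus Dwarf Recessive White. Thus 2 of the 6 tested probe sets of COL4A2 passed between breeds and 4 did not, although the brightest of these had an unadjusted p of 0.0289 for Tibetan minus Dwarf Recessive White. The 2 that passed share the target number 19409.1 in their names, and their breed patterns differed. Gga.19409.1.S1_s_at was lowest in Dwarf Recessive White hearts, while Gga.19409.1.S1_at was highest in Shouguang hearts. By the array's naming convention the suffix s_at marks probes that can match several transcripts.

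The COL14A1 probe set Gga.2558.3.S1_a_at passed for Shouguang minus Dwarf Recessive White, with -0.68 ± 0.10 (adjusted p = 0.00615 by limma). Its log2 signals were 11.78 and 11.73 in Shouguang hypoxia and 11.28 and 11.49 in Shouguang normoxia, against 12.09 and 12.38 in Dwarf Recessive White hypoxia and 12.11 and 12.44 in Dwarf Recessive White normoxia. Tibetan hearts had 12.04 and 12.24 in hypoxia and 11.91 and 11.95 in normoxia, above every Shouguang array, with 0.46 ± 0.10 for Tibetan minus Shouguang (adjusted p = 0.0611). The call for Shouguang minus Dwarf Recessive White was kept in all 12 fits that left out 1 array (adjusted p up to 0.0282), with -0.76 without the array of low W-linked signal, and missed the threshold without the trend (0.077). The brightest COL14A1 probe set had -0.35 ± 0.13 in the same comparison (adjusted p = 0.268), and the other pair -0.79 ± 0.20 (0.0912) and 0.16 ± 0.16. So 3 of 4 tested probe sets of COL14A1 had a difference below 0, and 1 of them passed. These genes were singled out with earlier results of the same arrays known.

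**Figure D5:**
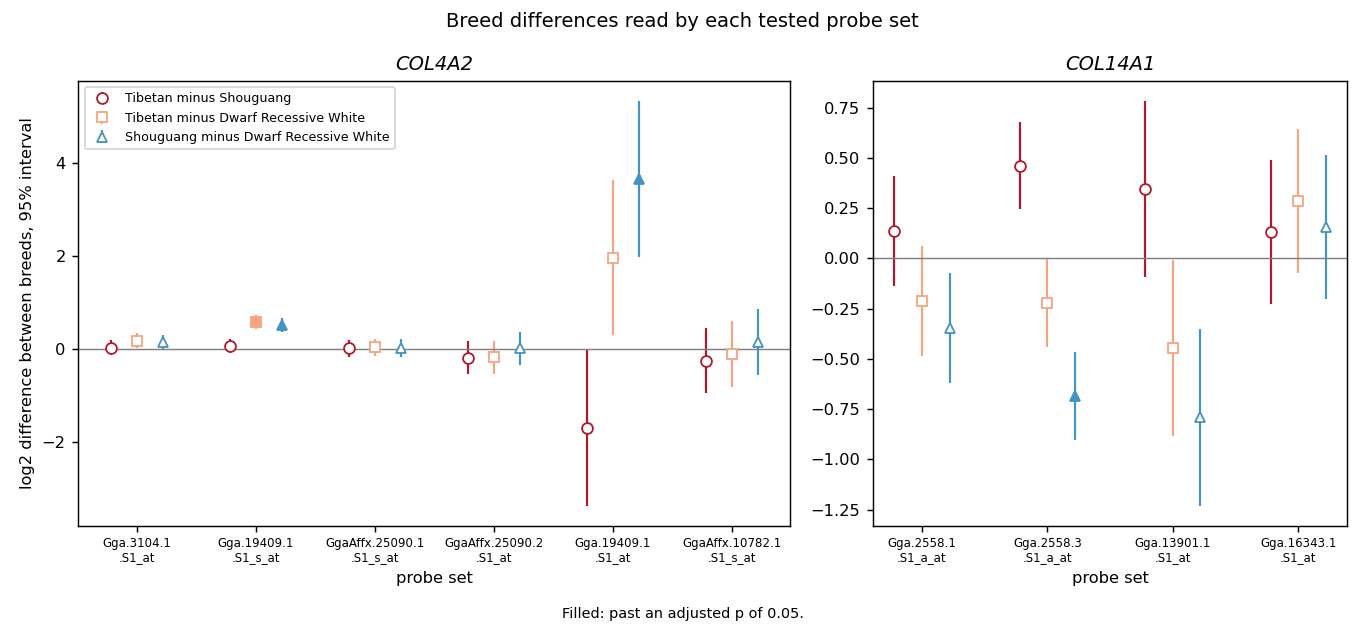
Breed differences of the 6 tested probe sets of COL4A2 and the 4 of COL14A1, averaged over both conditions, with 95% intervals on the log2 scale (circles for Tibetan minus Shouguang, squares for Tibetan minus Dwarf Recessive White, triangles for Shouguang minus Dwarf Recessive White); filled points passed an adjusted p of 0.05. Gga.19409.1.S1_s_at and Gga.19409.1.S1_at of COL4A2 and Gga.2558.3.S1_a_at of COL14A1 passed, while the brightest probe set of each gene did not.

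Genes that work with these matrix proteins were followed in 6 lists: procollagen folding and secretion, procollagen processing, fibril-associated proteoglycans and glycoproteins, other basement membrane components, collagen and laminin receptors, and collagen turnover. Of 92 listed genes 81 were measured and 67 tested. For the mean hypoxia effect 0 passed by limma, with 10 at an unadjusted p under 0.05 (14.9%, beside 8.36% of all probe sets, 7 above and 3 below 0), and the median over the 67 was 0.04. Between breeds 2 passed for Tibetan minus Shouguang (2.99%, beside 0.551% of all probe sets) and 1 for Tibetan minus Dwarf Recessive White (1.49%, beside 0.759%). FBLN1, a glycoprotein of basement membranes and elastic fibres, fell below both other breeds in Tibetan hearts, with -0.51 ± 0.09 for Tibetan minus Shouguang (adjusted p = 0.0326) and -0.56 ± 0.09 for Tibetan minus Dwarf Recessive White (adjusted p = 0.0137) by limma. ITGA9, an integrin subunit, was lower in Tibetan than in Shouguang hearts, with a log2 difference of -0.66 ± 0.12 (adjusted p = 0.0439). No listed gene passed for Shouguang minus Dwarf Recessive White, where 0 of 67 did, beside 1.33% of all probe sets, and 10 had an unadjusted p under 0.05 (14.9%, beside 11.7%, 5 in each direction). Of the fibroblast markers, which mark the main collagen-making cells, PDGFRB passed for Tibetan minus Shouguang (0.46 ± 0.09, adjusted p = 0.0477), and the 6 measured markers had a median of 0.04 there. Among the other marker lists, HBE, a haemoglobin gene, was lower in Tibetan than in Dwarf Recessive White hearts (-1.52, adjusted p = 0.00978 by limma). The 4 tested red blood cell markers, HBE among them, had a median of -0.158 there, with 1 above and 3 below 0. Their summed log2 signal was 16.41 to 16.63 on Tibetan and 16.49 to 16.59 on Dwarf Recessive White arrays. CD74, of leukocytes, was lower in both other breeds than in Dwarf Recessive White hearts (-0.67 for Tibetan and -0.66 for Shouguang, adjusted p = 0.031 and 0.0225). The 3 tested smooth muscle markers had medians of -0.38 for Tibetan minus Shouguang and -0.41 for Tibetan minus Dwarf Recessive White, with 0 past the adjusted threshold and 1 and 2 at an unadjusted p under 0.05. The 5 tested liver and yolk plasma protein genes had medians of 1.601 for Tibetan and 1.358 for Shouguang, each minus Dwarf Recessive White, with 0 past the threshold and 4 at an unadjusted p under 0.05 in both. The part of cell makeup in the breed differences was not tested.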

How the data were processed

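Arrays were normalized by the authors: the deposited table holds 1 intensity (signal) per probe set and array, made with GCOS per the submitters' processing notes, in a version not given in the sources used here. Total RNA was extracted with TRIzol and labelled as biotinylated cRNA, per the labels' protocols. Trimmed means (2% off each end) were near 500.1 on all 12 arrays and medians 133.9 to 154.6, so no further scaling was applied.

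Of 38535 probe sets, 96 controls and probe sets dimmer than the 40th percentile of mean log2 signal were left out, and 23063 were tested. Genes came from GEO's platform annotation (probe sets with 1 symbol), with the brightest tested probe set of each gene. Log2 signals were fitted in limma 3.58.1 (R 4.3.3) with 1 mean per group, a trended prior and Benjamini-Hochberg adjustment over all tested probe sets, and the fit was tested on simulated data. Errors are limma's SEs, from 6 residual degrees of freedom across 2 arrays a group, and the number of arrays limits the precision. Hypoxia effects (mean and by breed), their differences between breeds, and breed differences averaged over conditions gave 10 comparisons.

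Genes were named where their adjusted p passed 0.05, where they were among the 3 smallest p-values of the members in a comparison, or where they belonged to a set list of the main heart matrix chains and enzymes; others named were chosen after their values were seen. The members and lists were chosen with earlier results of these data known. The partner lists, markers of other cell types and alternatives (array leave-out, filters, offset, centring, quantile scaling, gene means, no trend, replicate block, W-linked covariate) are reported where they bear on a result. RefSeq (GRCg7b) gave chromosomes and neighbours only. No sequence is shown.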

Additional observations from a re-analysis of the deposited data

How the results depend on the processing

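No direction of a called member turned under any alternative, but calls came and went, for members and for all probe sets. Counts below are of members called for Tibetan minus Shouguang, Tibetan minus Dwarf Recessive White and Shouguang minus Dwarf Recessive White, in that order, each set beside the share of all probe sets called. As reported they were 3, 1 and 1 (0.551%, 0.759% and 1.33%), with 0 for mean hypoxia. They were 0, 0 and 0 with a covariate for W-linked signal (0.108%, 0.065% and 0.642%) and without the trend (0.078%, 0.121% and 0.434%). They were 1, 0 and 0 with each gene's mean of probe sets (0.652%, 0.827% and 1.05% of genes), 1, 0 and 1 with median centring (0.386%, 0.529% and 0.976%), 1, 1 and 0 without the filter (0.135%, 0.343% and 0.554%) and 2, 2 and 1 with only the arrays compared (0.347%, 0.863% and 0.95%). At an adjusted p of 0.1 they were 4, 3 and 2 (1.7%, 1.72% and 2.52%). The cause of these shifts was not tested. Offset, quantile scaling, a stricter filter and raising dim signals kept 3, 1 and 1. Leaving out 1 array gave 0 to 2, 0 to 2 and 0 to 1, and 0 throughout for hypoxia. For mean hypoxia 1 member passed with the mean of probe sets (COL20A1, adjusted p = 0.0328, beside 0.253% of genes) and 1 at an adjusted p of 0.1 (0.208%). No member passed within a breed or for a difference between breeds in the hypoxia effect under any alternative.

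Replicate numbers are shared by all groups. Deviations of same-numbered arrays correlated at 0.059 to 0.199 over 15 pairs of groups, all above 0 and over 0.1 in 7. The labels give no shared source for a number and not every pair was over 0.1, so the arrays were not treated as paired. With the replicate block, 4, 3 and 3 members passed between breeds (2.62%, 2.51% and 3.08% of all probe sets) and 1 for mean hypoxia (COL20A1, adjusted p = 0.0368, beside 0.351%), so calls were more frequent over the whole array as well. Those gained between breeds were LAMA5 for Tibetan minus Shouguang (0.029), PLOD1 (0.0214) and P4HA2 for Tibetan minus Dwarf Recessive White, and COL14A1 (0.006) and COL4A5 (0.0461) for Shouguang minus Dwarf Recessive White. The depth of an array is not known from signals, and 8 of the 56 genes had an array under the dim limit.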

Other observations

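The sign of the difference between replicates was shared across groups for some matrix genes. In 12 of 56 members (21.4%) replicate 2 lay on the same side of replicate 1 in all 6 groups, beside 13.8% of all probe sets. They were COL5A1, COL6A3, COL14A1, COL18A1, LAMA4, LAMB2, LOXL1, LOXL2, LOXL3, NID2, PLOD1 and PLOD2. The sources used here do not say what the replicate number stands for.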
